A study of Schizosaccharomyces pombe with 6 samples.

Results

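The RNAs that came down with the long non-coding RNA *aal1* were compared between fission yeast cells that overexpress *aal1* and wild-type cells. This comparison used 4 of the 6 pull-down libraries of the study, 2 from each strain, taken by their strain labels and not by any measured value. The wild type was an h- strain. The overexpression strain, *aal1-pOE*, carried *aal1* on a plasmid behind the thiamine-repressible P41nmt1 promoter, in h- cells with the *leu1-32* mutation, which were grown without leucine to keep the plasmid. The other 2 libraries came from *aal1∆* cells, an h- strain from which CRISPR-Cas9 had removed *aal1*, and gave the background of the pull-down. All cultures were in minimal medium with glutamate (EMMG) on Day 6 of stationary phase and were fixed with formaldehyde, and the replicates are labelled as biological. No library of a strain with the empty plasmid was analysed here, so the *aal1* level, the plasmid and the *leu1-32* background cannot be told apart. No library of the RNA before the pull-down was analysed here either, so a higher amount of an RNA in the cell and a higher recovery on the beads cannot be told apart.

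ChIRP-seq fixes RNAs to their partners, fishes out 1 RNA with biotinylated antisense oligonucleotides on streptavidin beads, and sequences what comes with it. The *nmt1* gene, from which the promoter derives, makes a precursor of thiamine and is shut off when thiamine is supplied. In stationary phase, fission yeast cells stop dividing, take down much of their protein synthesis and keep stress-protective proteins at high levels.

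The bait separated the strains, as the strain was built to do. *aal1* (SPNCRNA.1530), annotated as a lncRNA on the minus strand at chrII:2580400-2581182, was counted 28 and 147 times in wild type, 9540 and 20832 times in *aal1-pOE*, and not once in *aal1∆*. It made up 0.0313% and 0.170% of all wild-type counts, against 10.4% and 25.3% in *aal1-pOE*. Set per 1000000 counts of the other RNAs, this was 1007 ± 981 (SD, n = 2) in wild type and 230172 ± 160472 (SD, n = 2) in *aal1-pOE*, a 229-fold difference of the means. The lowest *aal1-pOE* library lay 68.6-fold above the highest wild-type library. With 2 libraries on each side, no exact permutation test can give a p below 0.33, which is what this difference reached (two-sided). The fold ran from 116 without *aal1-pOE* replicate 2 to 735 without wild-type replicate 2, and was 341 without *aal1-pOE* replicate 1 and 135 without wild-type replicate 1.

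SPNCRNA.401 is annotated on the other strand of the same place, at chrII:2580438-2581248, and lies opposite 745 of the 783 bases of *aal1*. It had 630 and 846 counts in *aal1-pOE* and none in either wild-type library, at least 318-fold higher with a floor of 3 counts per library. There were 15.1 and 24.6 *aal1* counts for each SPNCRNA.401 count. The 66 bases in capitals below are the only stretch of SPNCRNA.401 outside *aal1*, shown because a read lying wholly there cannot stem from *aal1* on either strand, while over the rest the 2 RNAs are told apart by strand alone. The sequences are from RefSeq, assembly ASM294v3, 5′ to 3′.
*aal1*, bases 1 to 60: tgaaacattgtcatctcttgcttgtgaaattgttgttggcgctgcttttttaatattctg
SPNCRNA.401, bases 716 to 811: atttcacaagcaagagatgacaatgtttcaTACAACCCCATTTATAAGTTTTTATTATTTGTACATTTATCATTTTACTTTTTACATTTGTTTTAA

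Both RNAs were left out of every total, scale and test that follows. The libraries then held 89463 and 86467 counts for wild type, 81747 and 60621 for *aal1-pOE*, and 175263 and 40653 for *aal1∆*, and the 4 compared had a count for 3192 to 3684 RNAs per library. At this depth most mRNAs had only a few counts, and 1366 RNAs had enough for a test. The median standard error of a log2 fold change was 0.89, and it was 0.41 for the 170 RNAs with a mean of 50 or more counts.

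Outside the *aal1* locus, 1 RNA of 1366 differed between the strains in edgeR's quasi-likelihood test with Benjamini-Hochberg adjustment (0.0732% of the RNAs tested), and that was a copy of 18S rRNA discussed below. No RNA was called lower in *aal1-pOE*. At an unadjusted p under 0.05 there were 54 RNAs (3.95%), 21 higher (1.54%) and 33 lower (2.42%), and DESeq2 called 0 RNAs with 44 at an unadjusted p under 0.05. Every adjusted p after the first was 0.995 or more. The log2 fold changes were centred on 0.036, with quartiles of -0.52 and 0.56, and 710 of 1366 lay above 0. Both *aal1-pOE* libraries lay above both wild-type libraries for 241 RNAs (17.6%), and below them for 223 (16.3%). A 229-fold higher bait thus went with no difference that passed the test in any mRNA.

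**Figure D1:**
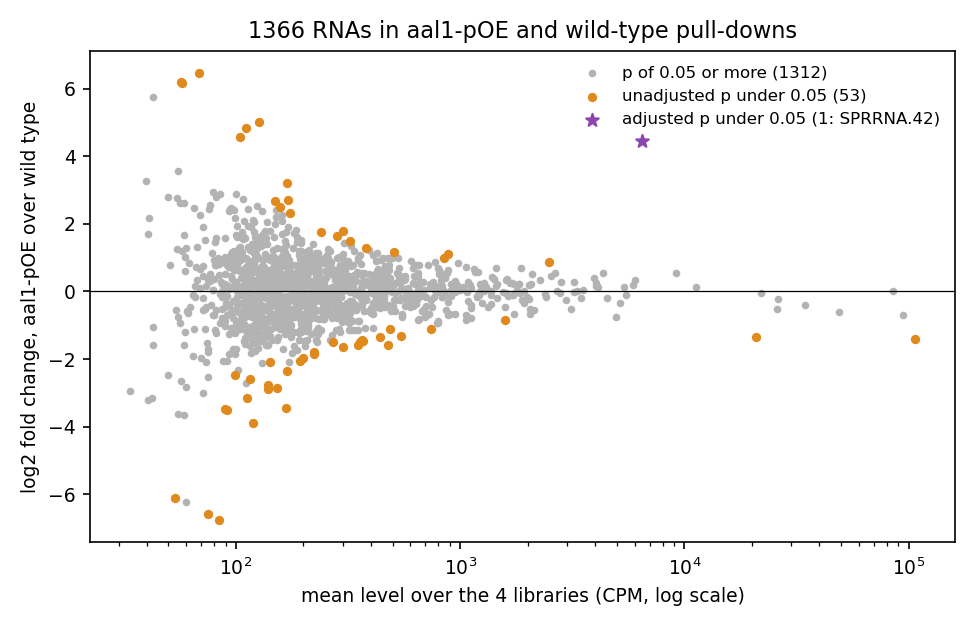
Each point is 1 of the 1366 RNAs tested, with its mean level over the 4 libraries in counts per 1000000 counts (CPM, log scale) on the x axis and its log2 fold change of *aal1-pOE* over wild type on the y axis. The changes spread most widely at low levels, SPRRNA.49 at -1.40 is among the most abundant RNAs, and the star marks the 1 RNA called, SPRRNA.42, at 4.44.

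The called RNA was SPRRNA.42, 1 of 5 annotated copies of the 18S rRNA, the RNA of the small ribosomal subunit. It had 53 and 35 counts in wild type against 1927 and 37 in *aal1-pOE*. Only *aal1-pOE* replicate 1 was high, and the other *aal1-pOE* library lay at the wild-type counts. Its log2 fold change was 4.44 (SE 0.74, edgeR adjusted p = 0.000403), and 0.11 without *aal1-pOE* replicate 1 (edgeR adjusted p = 0.977). The *aal1∆* libraries had 420 and 19 counts.

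The sequence shows what this copy is. SPRRNA.42 lies at the very start of the assembled chromosome, at chrIII:1-1390 on the minus strand, and holds the first 1390 of the 1842 bases of the full-length copy SPRRNA.43 at chrIII:10419-12260. The 2 differ at 1 position, T847N, counted from the 5′ end, where the assembly has no base call. SPRRNA.44 and SPRRNA.46 are identical to SPRRNA.43 over all 1842 bases, and SPRRNA.45 to its first 1001 bases. Of the 1324 stretches of 67 bases in SPRRNA.42, the length of a read after trimming, 1257 also occur in another copy, and the remaining 67 are those that hold the N. The 81 bases around that position are shown for SPRRNA.42 and for a full-length copy, with position 847 in capitals.
SPRRNA.42, chrIII:504-584, minus strand: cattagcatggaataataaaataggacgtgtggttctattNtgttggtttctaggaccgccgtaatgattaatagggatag
SPRRNA.43, chrIII:11374-11454, minus strand: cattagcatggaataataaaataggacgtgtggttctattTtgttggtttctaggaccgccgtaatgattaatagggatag

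Within the annotated copies, a single read without the N position cannot be told by sequence from one of another copy. Sequence beyond the copies, which the mate of a read may reach, was not compared. The sources do not say how reads that fit several copies were assigned, so the count of any single copy is uncertain. The split among them also varied between libraries of 1 strain. SPRRNA.42 took 32.6% of the 18S counts in *aal1-pOE* replicate 1 and 0.480% to 1.12% in the other 5 libraries. SPRRNA.46 took 85.2% of them in *aal1∆* replicate 1 and 26.2% to 38.3% in the others. Summed over the 5 copies, 18S rRNA had 5386 and 7292 counts in wild type against 5906 and 3952 in *aal1-pOE*, which is 6.02% and 8.43% against 7.22% and 6.52% of the counts of each library. Both *aal1-pOE* libraries thus lay between the wild-type libraries, and no RNA was called when rRNA copies were summed by product. SPRRNA.44 had the smallest p of all RNAs that were lower in *aal1-pOE*. It had 2307 and 2122 counts in wild type against 994 and 662 in *aal1-pOE*, a log2 fold change of -1.34 (SE 0.45, edgeR adjusted p = 0.995), and carries the same uncertainty.

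**Figure D2:**
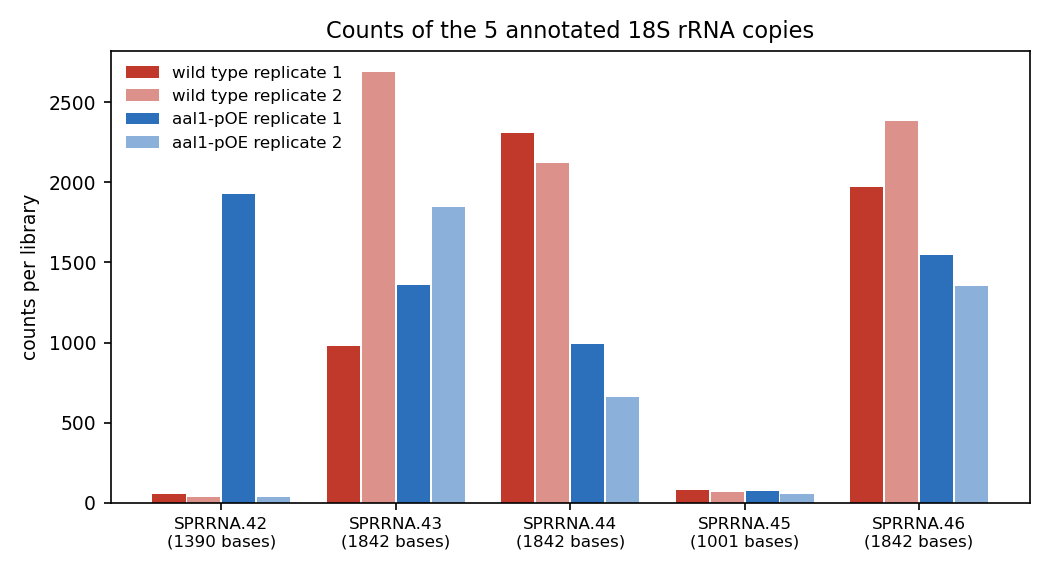
Bars give the counts of each annotated 18S rRNA copy (x axis, with its length) in the 2 wild-type libraries (red) and the 2 *aal1-pOE* libraries (blue). The bar of 1927 counts at SPRRNA.42 belongs to *aal1-pOE* replicate 1 alone, while the other 3 libraries have 35 to 53.

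By class, mRNAs of the nucleus and rRNA together made up most of each library. mRNAs of nuclear genes took 65.6% and 42.4% of the counts in wild type against 60.7% and 61.6% in *aal1-pOE*. Nuclear rRNA took 19.4% (Wilson 95% interval 19.1% to 19.6%) and 44.8% (44.5% to 45.2%) in wild type, and 21.5% (21.2% to 21.7%) and 25.4% (25.1% to 25.8%) in *aal1-pOE*. These intervals cover counting error only. Wild-type replicate 2 stood apart from the other 3 libraries, and the *aal1-pOE* libraries lay between the wild-type libraries in both classes (exact permutation p = 1 for each). The mean difference in nuclear rRNA was -8.66 percentage points, and 4.07 without wild-type replicate 2. In the *aal1∆* libraries rRNA took 39.0% and 31.2%.

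The excess in wild-type replicate 2 was mostly 28S rRNA, the large-subunit RNA. Its 3 copies, identical over 3485 bases, summed to 13.3% and 36.4% of counts in wild type against 14.2% and 18.9% in *aal1-pOE*. A further 3 RNAs, picked for naming once values were known, had their highest count in the same library. *srp7*, the 7SL RNA of the signal recognition particle, had 127 and 599 counts in wild type against 240 and 361 in *aal1-pOE*. The catalytic RNA of RNase P, *rrk1*, had 20 and 73 against 44 and 32. *mrp1*, the RNA of RNase MRP, which takes part in rRNA processing, had 22 and 65 against 42 and 35. For all 3 the wild-type libraries enclosed the *aal1-pOE* libraries. snRNAs and snoRNAs, given below, took a smaller share in wild-type replicate 2 than in wild-type replicate 1, but these shares have rRNA in the total. On edgeR's trimmed-mean (TMM) scale, snoRNAs summed to 701 CPM in wild-type replicate 1 and 977 in wild-type replicate 2. snRNAs summed to 518 and 463 CPM.

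SPRRNA.01 and SPRRNA.02, which the annotation used here does not name, were among the RNAs with the most counts. SPRRNA.01 had 7521 and 5352 counts in wild type against 8085 and 4086 in *aal1-pOE*. SPRRNA.02 had 2698 and 2983 against 2490 and 1654. Together they took 9.64% to 11.4% of wild-type counts and 9.47% to 12.9% of *aal1-pOE* counts, so the strains overlapped.

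Of the small stable RNAs, the snoRNA, snRNA and tRNA classes were rare in these libraries. snoRNAs, which guide rRNA modification and processing, took 0.0771% and 0.0659% of wild-type counts and 0.0391% and 0.0643% of *aal1-pOE* counts. snRNAs, the RNAs of the spliceosome, took 0.0570% and 0.0312% against 0.0575% and 0.114%. Each of these classes separated the strains by rank with p = 0.33 in the exact permutation test, but in each the nearest libraries differed by less than their counting intervals. Of the snRNAs, U2 (*snu2*, picked likewise) had 34 and 18 counts in wild type against 38 and 50 in *aal1-pOE*, a log2 fold change of 1.0 (SE 0.52). 1 tRNA count was found among 171 tRNA genes in the 4 libraries.

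**Figure D3:**
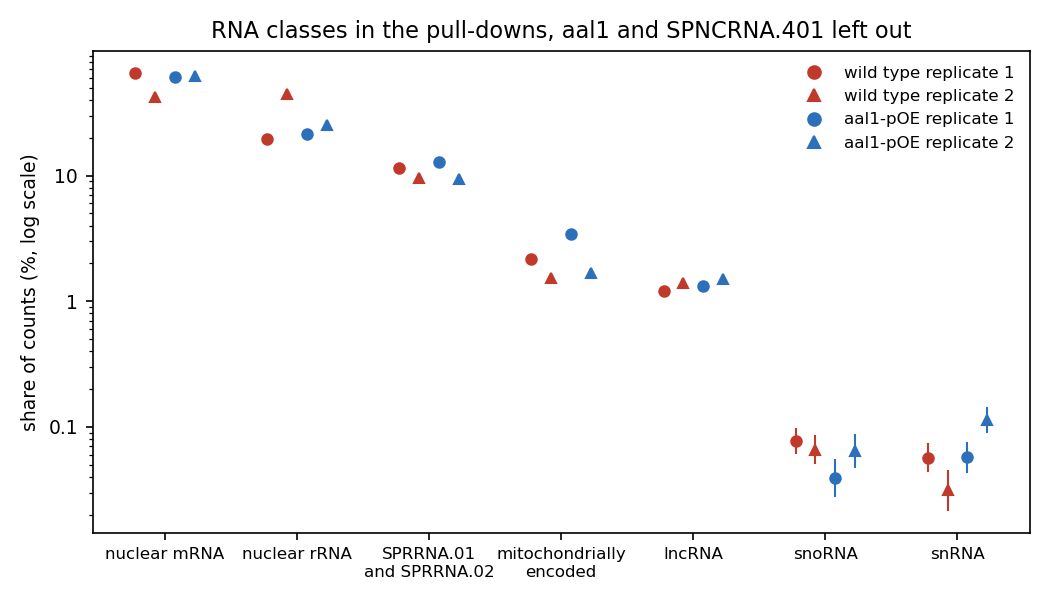
Points give the share of counts (log scale) of 7 RNA classes (x axis) in each of the 4 libraries, with Wilson 95% intervals for counting error, and *aal1* and SPNCRNA.401 left out. Wild-type replicate 2, the red triangle, lies apart at 42.4% for mRNA and 44.8% for rRNA, and the 2 strains overlap in all classes but snoRNA and snRNA.

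Mitochondrially encoded RNAs took 2.17% and 1.54% of wild-type counts and 3.43% and 1.69% of *aal1-pOE* counts. All 6 that were tested had a log2 fold change above 0, with a median of 0.56 beside 0.036 over all RNAs, and 0 were called. *cox3*, which encodes a core subunit of cytochrome c oxidase, had 195 and 90 counts in wild type against 403 and 80 in *aal1-pOE*. As with SPRRNA.42, *aal1-pOE* replicate 1 alone was high. The log2 fold change of *cox3* was 0.86 (SE 0.42), and -0.42 without that library. The same library was highest for *atp9*, an ATP synthase subunit, with 303 counts beside 142 and 167 in wild type and 146 in the other *aal1-pOE* library. It was highest too for SPMIT.11 (477 and 363 against 745 and 187), SPMIT.05 (102 and 49 against 173 and 35) and SPMIT.01 (1014 and 644 against 1133 and 548). *cox3*, *atp9*, SPMIT.05 and SPMIT.11 were picked for naming once values were known, and not every tested RNA of this class is listed.

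Among nuclear genes, those with the smallest p in the upward direction had low counts. *dip2*, which encodes a protein of the U3 snoRNA particle that matures 18S rRNA, had 3 and 2 counts in wild type against 30 and 14 in *aal1-pOE*. *rps1002*, for a 40S ribosomal protein, had 1 and 0 against 10 and 22. *sui1*, for the initiation factor eIF1 that helps choose the start codon, had 1 and 0 against 13 and 16. All 3 were picked for a small p and for strains that do not overlap in CPM, which 17.6% of all RNAs shared in this direction, so their separation is a description. The log2 fold changes were 3.20 (SE 1.10) for *dip2*, 5.02 (SE 1.79) for *rps1002* and 4.84 (SE 2.01) for *sui1*, with an edgeR adjusted p of 0.995 for each. The *aal1∆* libraries, which differ in depth, had 11 and 9 counts of *dip2*, or 74.9 and 238 CPM, and the second of these reached the 238 CPM of *aal1-pOE* replicate 2. They had 20 and 0 counts of *rps1002* and 7 and 0 of *sui1*.

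*lac1*, a ceramide synthase gene, had no count in wild type against 11 and 8 in *aal1-pOE*, at least 3.34-fold higher with a floor of 3 counts per library. SPAC24H6.13, annotated as a calcium transporter, had none against 2 and 12, at least 2.80-fold higher by the mean. Its 2 counts in *aal1-pOE* replicate 1 lay under the floor, so this bound rests on *aal1-pOE* replicate 2. *spo2*, needed for spore formation, had 0 and 1 against 17 and 11. *cfh2*, annotated as a chitin synthase regulator, had 1 and 5 against 17 and 22. 2 better-covered RNAs shared the direction. *sre2*, for a membrane-tethered transcription factor, had 16 and 6 counts against 48 and 20 (log2 fold change 1.79, SE 0.69). SPAC694.02, for a DEAD/DEAH box helicase, had 29 and 49 against 102 and 65 (log2 fold change 1.10, SE 0.45). None of these RNAs passed the adjusted test.

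In the downward direction, too, no RNA passed the adjusted test. The lncRNA SPNCRNA.1560, at chrII:2888192-2892009 on the minus strand, had 41 and 12 counts in wild type against 4 and 0 in *aal1-pOE*, a log2 fold change of -3.45 (SE 1.17), and 8 and 10 counts in *aal1∆*. *ric1*, which encodes part of an exchange factor for a Golgi Rab GTPase, had 18 and 9 counts against none, at least 3.81-fold lower. *dcd1*, for deoxycytidylate deaminase of nucleotide synthesis, had 16 and 8 against none, at least 3.39-fold lower. Both had counts in each *aal1∆* library, 5 and 8 for *ric1* and 6 and 8 for *dcd1*. *cut3*, for a condensin subunit that compacts chromosomes, had 31 and 8 counts against 2 and 0.

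The better-covered RNAs with the smallest p downward had log2 fold changes between -1.59 and -1.12. *dak2*, for a dihydroxyacetone kinase, had 50 and 54 counts in wild type against 11 and 20 in *aal1-pOE* (log2 fold change -1.59, SE 0.61). *pdc202*, for a pyruvate decarboxylase, had 48 and 33 against 6 and 18 (-1.51, SE 0.58). Its abundant relative *pdc201*, the mRNA of a nuclear gene with the most counts, had 2191 and 1317 against 1796 and 1224 (-0.05, SE 0.46), so its wild-type and *aal1-pOE* counts overlapped. *dld1*, for dihydrolipoamide dehydrogenase, a subunit of the pyruvate dehydrogenase complex, had 51 and 61 against 31 and 13 (-1.32, SE 0.52). *ubr11*, for a ubiquitin ligase, had 93 and 63 against 44 and 22 (-1.12, SE 0.46). The uncharacterised gene SPCC191.01 had 72 and 21 against 19 and 9 (-1.48, SE 0.60). The edgeR adjusted p was 0.995 for each.

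**Figure D4:**
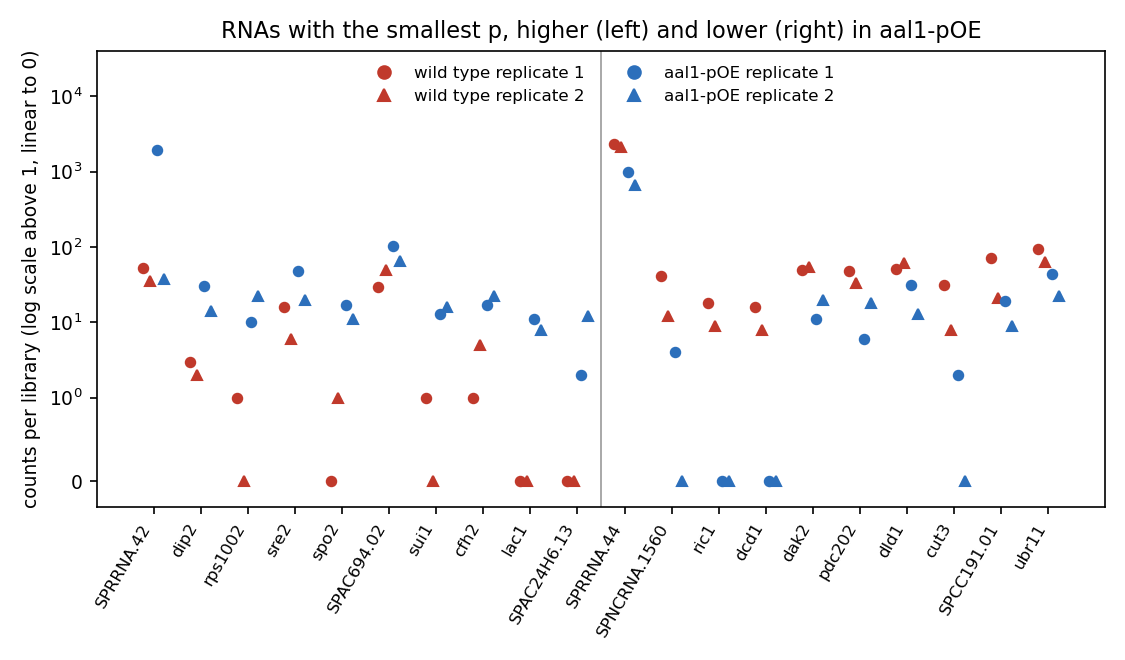
Points give the counts (log scale above 1) in each of the 4 libraries for the 10 RNAs with the smallest p among those with both *aal1-pOE* libraries above both wild-type libraries in CPM (left) and the 10 below (right). 4 of the 20 RNAs have 0 counts in both libraries of 1 strain, and SPRRNA.42 is high in a single library.

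Genes of protein synthesis were spread on both sides of 0. Of 49 tested genes for 60S ribosomal proteins, 26 lay above 0 and 23 below, with a median log2 fold change of 0.09, and of 44 for 40S proteins, 26 lay above and 18 below, with a median of 0.21, beside 0.036 over all RNAs. None was called. Both *aal1-pOE* libraries were above both wild-type libraries for 7 of the 60S genes and below for 10, and for 8 and 4 of the 40S genes, beside 17.6% and 16.3% of all RNAs. Summed, the 82 genes for 60S proteins took 1.43% and 1.19% of wild-type counts and 1.50% and 1.65% of *aal1-pOE* counts, and the 55 for 40S proteins took 0.962% and 0.851% against 1.02% and 1.37%. As shares of all counts the *aal1-pOE* libraries were above the wild-type libraries, but these totals include the rRNA that was high in wild-type replicate 2. On the TMM scale (edgeR's trimmed-mean scaling between libraries, used in the fit) the strains overlapped in both sums, with 12970 and 17573 against 15325 and 17002 CPM for the 60S genes and 8745 and 12619 against 10450.2 and 14129 CPM for the 40S genes. The largest drop was in *rpl2701*, with 18 and 18 counts against 4 and 1, and it did not pass the adjusted test. *rpl2001* had 8 and 5 counts against 23 and 16, and *rpl501* 52 and 29 against 22 and 12. Among 40S genes, *rps1502* had 13 and 13 against 26 and 36, and *rps102* 50 and 34 against 50 and 81. Many of these genes have a near-identical second copy, and the sources used here do not say how reads were split between copies. Initiation factors had a median of 0.23 over 14 tested genes, of which *tif301*, for an eIF3 subunit, had 32 and 7 counts against 27 and 38. Elongation factors had a median of -0.06 over 10, with 4 above 0 and 6 below. The highest of these, at 0.28, was *tef103*, for a copy of elongation factor EF-1 alpha, with 223 and 209 counts against 262 and 224.

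Glycolytic genes were well covered, and all 13 were tested. Their median log2 fold change was 0.12, with 10 above 0 and 0 called. *pyk1*, for pyruvate kinase, had 180 and 127 counts against 158 and 184, and the enolase gene *eno102* had 160 and 199 against 100 and 112. *hxk1*, for a hexokinase, had 26 and 10 against 30 and 42, a log2 fold change of 1.29 (SE 0.62). The alcohol dehydrogenase gene *adh1* had 125 and 69 against 170 and 62. The transporters that bring in hexoses had a median of 0.00 over 5 tested members. The glucose importer gene *ght5* had 293 and 235 counts against 470 and 258, *ght3*, for a gluconate importer, had 11 and 13 against 51 and 14, and *ght4* had 16 and 10 against 6 and 9.

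In the tricarboxylic acid cycle the median was 0.16 over 13 tested genes. *aco1*, for aconitase, was among the better covered, with 332 and 232 counts in wild type against 183 and 167 in *aal1-pOE* (log2 fold change -0.52, SE 0.38). *tim18*, annotated as an anchor of succinate dehydrogenase and part of a mitochondrial import complex, had 18 and 13 against 2 and 1 (-3.15, SE 1.31). *kgd2*, for a subunit of the oxoglutarate dehydrogenase complex, had 29 and 17 against 38 and 37. Nuclear genes of the respiratory chain and ATP synthase had a median of 0.25, with 11 of 15 above 0. Examples are *atp5* (8 and 0 against 18 and 10), *atp17* (0 and 14 against 12 and 22) and *cox13* (4 and 0 against 8 and 8). 0 genes of either group were called.

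The stress genes looked at as marks of non-dividing cells were recovered in each of the 4 libraries compared. *hsp9* and *hsp16* had log2 fold changes of -0.012 and 0.049, and the others named next lay below 0. *hsp9* had 151 and 119 counts in wild type against 136 and 108 in *aal1-pOE*, and *hsp16*, for a small heat-shock protein, had 133 and 128 against 169 and 90. The catalase gene *ctt1* had 52 and 73 against 35 and 40 (-0.66), and *gpx1*, for glutathione peroxidase, had 27 and 30 against 26 and 7 (-0.78). *cta3*, for a cation pump, had 79 and 25 against 44 and 16 (-0.58), and *tps1*, for trehalose synthesis, had 59 and 19 against 20 and 25 (-0.48). The edgeR adjusted p was 0.996 for *hsp9* and 0.995 for each of the others. Chaperones had a median log2 fold change of -0.06 over 25 tested genes, among them *hsp78*, for a mitochondrial chaperone, with 23 and 12 counts against 23 and 30. Oxidative stress genes had a median of 0.10 over 7, and general stress genes one of -0.14 over 13. In that last group *gld1*, for glycerol dehydrogenase, had 567 and 385 against 317 and 199 (-0.75, SE 0.39). The stress gene *lsd90*, also picked with values known, had 715 and 447 against 809 and 683 (0.54, SE 0.42). 0 of these genes were called.

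Cell-wall glucan genes had a median log2 fold change of 0.48 over 17 tested, with 14 above 0 and 3 below, and 0 were called. *bgs2*, for the glucan synthase of the spore wall, had 17 and 2 counts in wild type against 30 and 22 in *aal1-pOE* (1.76, SE 0.85). *ags1*, for the alpha-glucan synthase (picked for naming once values were known), had 44 and 57 against 113 and 64 (0.84, SE 0.42). *bgs3*, for a glucan synthase of growing cells, had 76 and 29 against 26 and 10 (-1.34, SE 0.64), and *bgl2*, for a glucosidase, had 84 and 27 against 17 and 24 (-1.12, SE 0.54). Both *aal1-pOE* libraries were above both wild-type libraries for 4 of the 17, beside 17.6% of all RNAs.

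The remaining groups held few tested genes and 0 calls. Core histones had a median of 0.05 over 8, with *hta2*, for histone H2A, at 12 and 26 counts against 2 and 5 (-2.36, SE 1.0), *hhf1*, for histone H4, at 12 and 19 against 6 and 5, and *htb1*, for histone H2B, at 58 and 34 against 63 and 33. Vacuolar protease and autophagy genes had a median of 0.15 over 13, with the protease gene *isp6* at 231 and 146 against 146 and 91. Proteasome and ubiquitin genes had a median of -0.57 over 7 of 35, with 3 above 0 and 4 below, and ran from -3.50 to 2.61. The lowest was the proteasome ATPase gene *rpt5*, with 20 and 8 against 2 and 0. Vacuolar ATPase genes had a median of 0.95 over 4 of 16, among them *vma1* with 8 and 5 against 11 and 8 and *vma2* with 8 and 2 against 10 and 9. Genes of nitrogen metabolism had a median of -0.01 over 6, with the ammonium transporter gene *amt2* at 15 and 15 against 39 and 26. Of the iron and phosphate uptake genes, only *sib1*, for making the iron carrier ferrichrome, was tested, with 57 and 24 counts against 55 and 34. None of the 48 genes for mitochondrial ribosomal proteins had enough counts. On the TMM scale their sum was 549 and 994 CPM in wild type against 1137.5 and 1088 in *aal1-pOE*. Sums were also above wild type in both *aal1-pOE* libraries for initiation factors (5028 and 5178 against 5563 and 6699), respiratory chain, vacuolar ATPase and reference genes. They were below for proteasome and ubiquitin genes (2102 and 2692 against 2087.5 and 1836). Of single RNAs, 17.6% separated upward and 16.3% downward, and the sums were not tested. As shares of counts the strains overlapped for initiation factors (0.553% and 0.349% against 0.544% and 0.650%). They also overlapped for proteasome and ubiquitin genes (0.231% and 0.182% against 0.204% and 0.178%). Some sums held few counts, as for mitochondrial ribosomal proteins (54 and 58 against 91 and 64) and vacuolar ATPase (57 and 41 against 71 and 45). On the TMM scale, sums of the other gene lists overlapped.

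**Figure D5:**
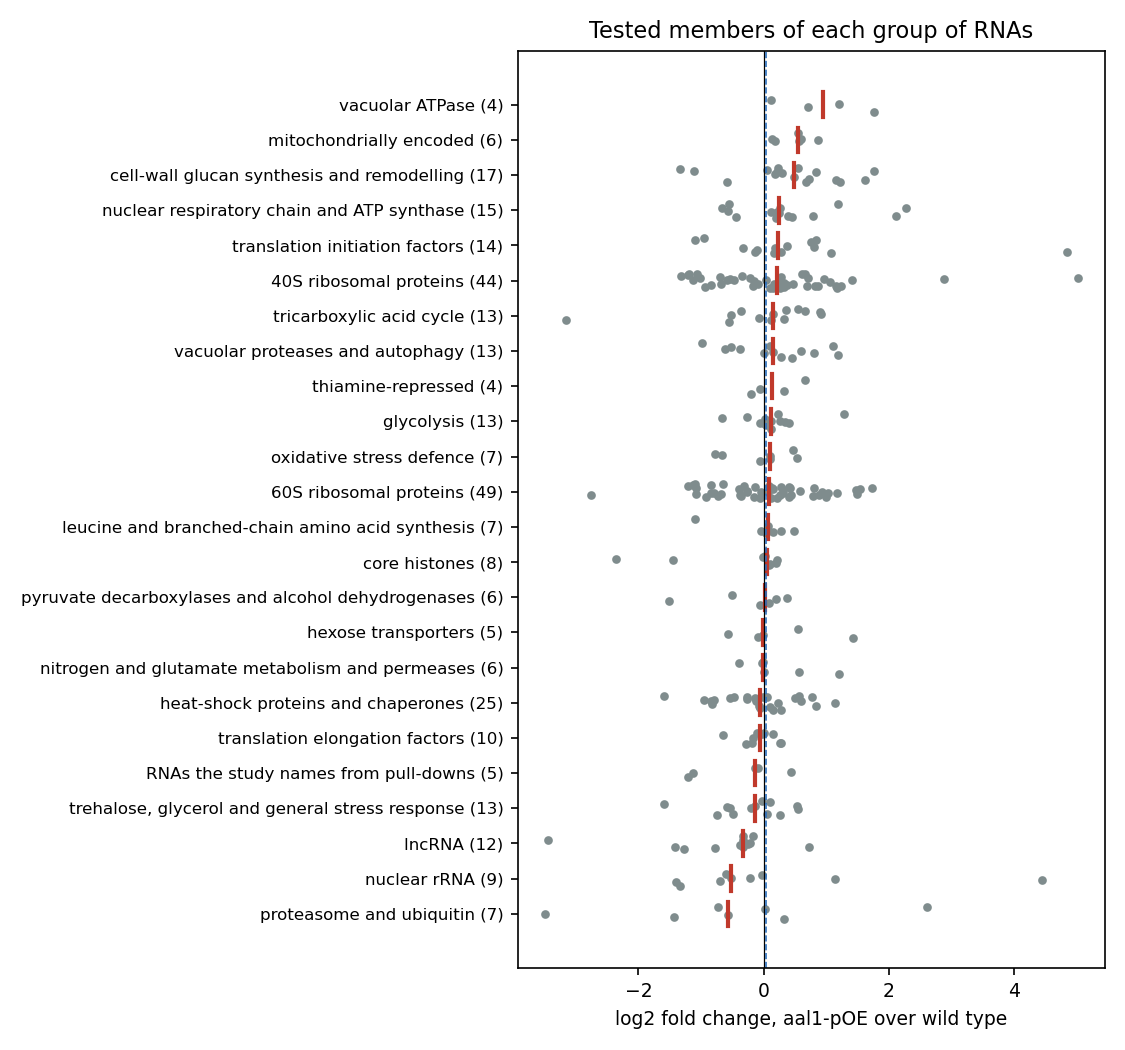
Each grey point is the log2 fold change (x axis) of 1 tested member of a group of RNAs (y axis, with the number tested), and red bars are group medians. The dashed blue line is the median of all 1366 RNAs at 0.036. Medians of groups with 10 or more tested members lie between -0.33 for the annotated lncRNA class and 0.48 for cell-wall genes.

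Genes tied to the construct itself were looked at, since the plasmid promoter responds to thiamine and the strain carries *leu1-32*. *nmt1*, whose promoter family drives *aal1* on the plasmid, had 370 and 402 counts in wild type against 464 and 447 in *aal1-pOE*, a log2 fold change of 0.33 (SE 0.40, 95% interval -0.48 to 1.15). The thiazole synthesis gene *thi2* had 67 and 65 against 146 and 57 (0.66, SE 0.42), the thiamine transporter gene *thi9* had 44 and 19 against 41 and 9, and *bsu1*, for vitamin B6 uptake, had 24 and 16 against 22 and 13. The strains overlapped in CPM for all 4. Summed over the 8 genes of the group, the share of counts was 0.607% and 0.592% in wild type against 0.837% and 0.888% in *aal1-pOE*, but on the TMM scale the sums overlapped, with 5515 and 8778 against 8550.1 and 9147 CPM. A further 4 genes of this group had too few counts, among them *thi4* with 20 and 5 counts in wild type against 1 and 0 in *aal1-pOE*.

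*leu1*, the gene mutated in the overexpression strain, had 1 and 7 counts in wild type against 9 and 1 in *aal1-pOE*, too few for a test. The 7 other genes of leucine and branched-chain amino acid synthesis had a median log2 fold change of 0.07, and 0 were called. *leu3*, for the first enzyme of the leucine branch, had 134 and 80 counts against 133 and 81 (0.16, SE 0.38, 95% interval -0.61 to 0.93), *leu2* had 63 and 26 against 39 and 39, and *ilv5*, for the reductoisomerase of the shared pathway, had 71 and 73 against 94 and 49. *ilv1* had 25 and 26 against 47 and 14, *ilv3* had 20 and 18 against 33 and 17, and *ilv6* had 8 and 19 against 17 and 10. The transaminase gene *eca39* had 15 and 25 against 19 and 1, and only 1 *aal1-pOE* library was low.

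The study named 5 RNAs from its pull-downs against *aal1∆*, so this list was chosen on libraries used here too. A higher bait did not go with a called difference in any of them. *rpl1901*, which encodes a 60S ribosomal protein (chrII:4123056-4123747), had 14 and 25 counts in wild type against 28 and 9 in *aal1-pOE*, a log2 fold change of -0.14 with a 95% interval of -1.86 to 1.58. *rpl1802* had 26 and 28 against 36 and 32 (0.43, interval -0.78 to 1.65), *rps502* had 32 and 23 against 20 and 25 (-0.10, interval -1.50 to 1.31), and *rps27* had 16 and 10 against 1 and 8 (-1.20, interval -4.16 to 1.76). Each interval holds a difference of 2-fold or more in at least 1 direction, so a change of that size could not be told from none at this depth.

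The fifth is *snR30*, the U17 snoRNA needed to cut pre-rRNA on the way to 18S rRNA, at chrI:3394875-3395200 on the plus strand. It had 47 and 28 counts in wild type against 16 and 14 in *aal1-pOE*. In CPM this was 479 ± 1.89 (SD, n = 2) in wild type and 219 ± 26.8 (SD, n = 2) in *aal1-pOE*, beside 218 and 159 in the *aal1∆* libraries. Both *aal1-pOE* libraries were thus below both wild-type libraries, as for 16.3% of all RNAs, and close to those without *aal1*. The study picked *snR30* as enriched in these wild-type libraries over these *aal1∆* libraries, so this order is a description. *rpl1901*, *rpl1802* and *rps502* had lower CPM in both *aal1∆* libraries than in both *aal1-pOE* libraries, and *rps27* overlapped. These RNAs were picked in the same way, as low in these *aal1∆* libraries, so their order is a description too. The share of all RNAs with that order was not counted. The log2 fold change of *snR30* was -1.13 (SE 0.67, edgeR adjusted p = 0.995), so its difference between the strains did not pass the test.

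Reference genes and neighbours of *aal1* complete the comparison. The actin gene *act1* had 49 and 48 counts against 70 and 60 (0.53, SE 0.46, 95% interval -0.40 to 1.46), and the calcineurin gene *ppb1* had 8 and 2 against 0 and 10. The flanking genes *ckb2* (0 and 4 against 0 and 1) and *ctu1* (0 and 1 against 7 and 0) had too few counts. Among other lncRNAs, the polyadenylated RNA *prl53* (likewise picked with values known) had 262 and 141 counts against 169 and 143. 12 of 1385 RNAs annotated as lncRNA, without the *aal1* locus, could be tested, with a median of -0.33. Of these 12, 11 lay below 0. The annotated class includes *srp7*, *rrk1* and *mrp1*, which were among those tested and below 0. The whole class went the other way as a share of counts, with 1.21% and 1.39% in wild type against 1.31% and 1.50% in *aal1-pOE* (difference of means 0.108 percentage points, exact permutation p = 0.667), so the strains overlapped. *srp7* alone gave 127 of 1080 and 599 of 1201 class counts in wild type. In *aal1-pOE* it gave 240 of 1072 and 361 of 910. The class values thus do not describe the other lncRNAs alone, and the share without *srp7*, *rrk1* and *mrp1* was not computed.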

How the data were processed

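The members and gene lists were chosen with earlier results of these data known. The authors deposited raw counts per gene of 6 ChIRP-seq libraries, made with HISAT2 2.2.1 in its FR strand mode from 75-base read pairs trimmed by 8 bases, and HTSeq 0.12.3 in its reverse mode, which name opposite strands. A collapse of molecular tags is not described for ChIRP-seq, so PCR copies may be counted. The build they mapped to is not named in the sources. Identifiers (6852 of 7001) were matched to RefSeq ASM294v3, and 3 mitochondrial names (*cox3*, *var1*, *atp9*) came from the study's supplement.

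*aal1* and SPNCRNA.401 were removed, then filterByExpr by strain, TMM, glmQLFit and glmQLFTest (edgeR 4.0.16, R 4.3.3) were run on all 6 libraries (common dispersion 0.247, 3 residual and 43.3 prior degrees of freedom), with Benjamini-Hochberg adjustment and a threshold of 0.05. CPM are TMM-scaled. Shares by class were tested with exact permutation (two-sided). Named RNAs were those called, the 10 with the smallest p in each direction whose strains did not overlap in CPM, the 10 of highest count, and at most 3 from each of 24 lists (every tested member of the thiamine, leucine, study-named and reference lists). Some further RNAs were picked once values were known, and some list members that met these rules were left unnamed. Between replicates, chi-square divided by its degrees of freedom was 12.6 for wild type and 6.17 for *aal1-pOE*, so all libraries were kept as separate replicates. The alternatives were other scalings, filters and tests (DESeq2 1.42.0), a fit of only the 4 libraries, a replicate block and each library left out, and, added after seeing the data, rRNA copies summed by product.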

Additional observations from a re-analysis of the deposited data

How the results depend on the processing

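The 1 call, SPRRNA.42, was also made under 13 of 18 alternatives. No RNA was called with rRNA and mitochondrially encoded RNAs left out (which removes it), with DESeq2, with the replicate block, or with rRNA copies summed by product (0 each), and 0 or 1 with a library left out. The log2 fold change of SPRRNA.42 was 4.42 in DESeq2 (adjusted p = 0.997), 3.03 with the replicate block (adjusted p = 0.144), and 0.11 without *aal1-pOE* replicate 1 to 5.46 without *aal1-pOE* replicate 2. Same-numbered libraries deviated together only weakly (r = 0.0864 between the strains), so the block rests on a number alone. Scaling to library size only moved the median of all RNAs to 0.17, from 0.036.

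Differences in class share turned sign under some alternatives for mRNA, rRNA, SPRRNA.01 and SPRRNA.02, mitochondrially encoded RNA and lncRNA. Those for snoRNA and snRNA kept their sign under each alternative. With *aal1* and SPNCRNA.401 in the total, *aal1-pOE* minus wild type was -4.29 percentage points for mRNA, -1.28 for SPRRNA.01 and SPRRNA.02, and -0.161 for lncRNA. With rRNA out of the total it was -1.24 for SPRRNA.01 and SPRRNA.02 and -0.166 for lncRNA. With a library left out it ran from -4.46 to 18.7 for mRNA, -21.4 to 4.07 for rRNA, -1.06 to 2.40 for SPRRNA.01 and SPRRNA.02, and -0.168 to 1.57 for mitochondrially encoded RNA.

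Of the 1631 comparisons of the 94 named RNAs with an alternative, 56 turned sign, none of them a called value, and 42 of these came from a library left out. On library size only, the log2 fold change was 0.20 for SPRRNA.43, 0.10 for *pdc201*, 0.11 for *bsu1*, 0.31 for *ilv6*, 0.18 for *rpl1901*, 0.085 for *rps502*, 0.14 for *srp7*, 0.040 for *rrk1* and 0.17 for *mrp1*. With the replicate block it was 0.088 for *ilv6*, -0.58 for *ppb1*, 0.17 for *srp7* and 0.095 for *mrp1*. In a fit of only the 4 libraries it was -0.0078 for SPRRNA.01. With a library left out, the ranges were -2.15 to 0.32 for SPRRNA.49, -1.32 to 0.49 for SPRRNA.47, -1.27 to 0.73 for SPRRNA.48, -0.31 to 0.32 for SPRRNA.01, -0.77 to 0.11 for SPRRNA.02, -0.93 to 0.076 for SPRRNA.46, -0.92 to 1.27 for SPRRNA.43, -0.14 to 0.055 for *pdc201*, -0.23 to 0.46 for SPMIT.01, -0.26 to 0.84 for *adh1*, -1.16 to 0.064 for *ctt1*, -0.027 to 0.83 for *nmt1*, -1.38 to 0.45 for *thi9*, -0.26 to 0.14 for *bsu1*, -0.57 to 0.82 for *ilv1*, -0.025 to 0.34 for *leu3*, -0.16 to 0.38 for *leu2*, -0.29 to 0.49 for *ilv5*, -0.73 to 1.23 for *ilv6*, -0.10 to 0.48 for *htb1*, -0.89 to 0.84 for *rpl1901*, -0.46 to 0.21 for *rps502*, -5.34 to 1.44 for *ppb1*, -1.16 to 1.80 for *srp7*, -1.17 to 1.42 for *rrk1*, -0.97 to 1.31 for *mrp1*, -0.42 to 1.56 for *cox3*, -0.70 to 1.25 for SPMIT.05 and -0.83 to 0.81 for SPMIT.11. The cause was not tested. Of 534 list medians under an alternative, 46 moved by more than the spread between replicates. With 60621 to 89463 counts per library, a 2-fold difference was under 2 standard errors for an RNA of median precision (SE 0.89).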
